A study of Homo sapiens with 6 samples.

Results

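Long-range multi-exon circles are circular RNAs (circRNAs) whose back-splice junction joins exon ends that lie more than 40000 bp apart in the genome. They were taken as all circles that the deposited table places in the exonic category, with a genomic span over 40000 bp and a predicted spliced length that differs from that span, whatever catalogue lists them. This gave 659 circles from 409 host genes, which is 8.51% of the 7746 circRNAs listed and 10.0% of the 6585 exonic ones. No exonic circle over 40000 bp was left out by the condition on spliced length, so every one of them is predicted to hold more than 1 exon. Circular RNAs were sequenced in 3 libraries of PANC-1, a human pancreatic cancer cell line, and 3 libraries of PANC-1-GR, its Gemcitabine-resistant derivative (the resistant line). PANC-1-GR was raised from PANC-1 in Gemcitabine, a nucleoside analogue used in chemotherapy, from 0.1 to 200 μg/ml over 40 weeks and was then kept with periodic additions of 10 μg/ml, while PANC-1 is the parental line. The study names a medium for PANC-1 and does not state one for PANC-1-GR beyond the drug. PANC-1-GR is 1 derived line, and no label says that the 3 libraries of each line were separate cultures. The p-values below therefore set a difference against the variation between these libraries, and that variation may be technical.

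A circRNA forms when a splice donor at the end of an exon is joined to a splice acceptor further upstream, at the start of that exon or of one before it. The product has no free ends, resists exonucleases, and usually has lost the introns that lay between its exons in the gene. Long introns on both sides of the circularised exons, with repeats that can pair, are a known setting for back-splicing, and QKI and several other RNA-binding proteins promote it. Each circle was counted by reads over its back-splice junction. This is 1 site per circle whatever its length, and such reads do not show which exons lie inside, so the spliced length is a prediction from annotated exons.

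The junctions of 9 circles are shown, because the sequence at the junction is what identifies a circle in the reads. They belong to 4 RNF13 circles, to the abundant DNAH14 and HERC4 circles, and to the 3 circles with the smallest p between the lines (DNAH14 of 71196 bp, RHBDD1 and TNS3). Each line gives 30 bases, 5′ to 3′. The lower-case letters are the last 15 bases of the exon at which the circle ends, and the capitals are the first 15 bases of the exon at which it starts. Sequences are from GENCODE release 29 transcripts (GRCh38), matched to each circle by equal span and equal spliced length.
RNF13 hsa_circ_0001346: ataaattcaagaaagGTGATTTTACAACGA
RNF13 hsa_circ_0003502: atagtcattttcatgGTGATTTTACAACGA
RNF13 hsa_circ_0067717: tgggatccaacgacaGTGATTTTACAACGA
RNF13 hsa_circ_0003956: cgacagtaagtacagGTGATTTTACAACGA
DNAH14 hsa_circ_0016601: agtacttttctaaagCCAGTTCCTTTATAG
DNAH14 circle of 71196 bp: tgaaaatcttatcagCCAGTTCCTTTATAG
HERC4 circle of 47504 bp: caggcctatggaatgGCAGCACACTTCTGC
TNS3 hsa_circ_0080189: gtccgactggaacagCCGGAAGAATTAACC
RHBDD1 hsa_circ_0058495: gcctctgggaccgagGTTCAGCCGTCTGTA
The 4 RNF13 junctions carry the same capitals, since these circles start at the same boundary, and differ in where they end. The 2 DNAH14 junctions likewise share their start.

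The libraries held 9222 to 13689 junction reads, of which long circles took 6173 of 66978 over all 6, or 9.22%. Within a library the share ran from 8.45% (95% Clopper-Pearson interval 7.96 to 8.96) in PANC-1 replicate 1 to 9.63% (9.04 to 10.2) in PANC-1 replicate 3. All such intervals take reads as independent and describe counting error alone, without the variation between libraries. The sources used name no molecular identifiers, so reads may not be independent molecules and the intervals may be too narrow. Markers could not check the cell type here, as 1 of 10 epithelial and ductal marker genes (KRT19) and 0 of the fibroblast, blood and endothelial ones had any listed junction.

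Genomic span and spliced length were only loosely related among the long circles. Their median span was 53353 bp (40027 to 99910) and their median predicted spliced length was 810 bases (111 to 10411), with the middle 50% between 525 and 1390 bases. Multi-exon circles of 10000 to 40000 bp, 2484 in number, had a median spliced length of 644 bases, and the 3071 circles up to 10000 bp had 358 bases. A long circle thus covered a median of 67.1 bp of genome per base of predicted RNA, against 29.4 and 9.02 in the shorter classes, an order that the choice of circles by span in part fixes. Across the long circles, the correlation of log span with log spliced length was 0.062 (659 circles, many of which share exons of 1 gene), against 0.193 within the class of 10000 to 40000 bp and 0.429 within that up to 10000 bp. The classes cover spans of different breadth, and these values are descriptions with no test.

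**Figure D1:**
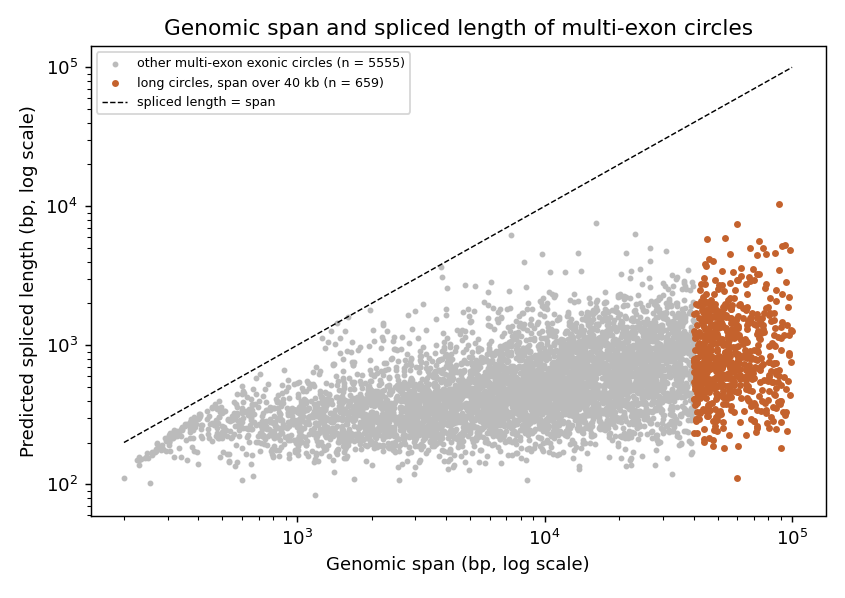
Genomic span (bp, log scale) against predicted spliced length (bases, log scale), 1 point per circle, for 659 long circles (orange) and 5555 other multi-exon exonic circles (grey), with a dashed line where both are equal. Long circles form a column from 40027 bp to 99910 bp in which spliced length varies between 111 and 10411 bases.

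The extremes were covered by few reads. The longest span was that of MSH3, a mismatch repair gene, at chr5:79974746-80074655 in hg19, with 99910 bp reduced to 1262 predicted bases in exons 8 to 17 and only 2 reads, both in PANC-1 replicate 2. FANCC, of the Fanconi anaemia core complex, followed with 99447 bp and 764 bases and 2 reads in PANC-1-GR replicate 2. The next were PHKB, a regulatory subunit of phosphorylase kinase, with 99133 bp and 7 reads, the zinc finger gene ZNF236 with 98127 bp and 3 reads, ACBD6 with 98010 bp and 5 reads, and UBE3D with 96927 bp and 3 reads. No listed circRNA of any category spanned more than 99910 bp. The sources used do not say whether the calling of junctions limited the span, so the upper end of the range may be cut.

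At the compact end, the SPATS2L circle joined 2 exons of 111 bases in all across 59853 bp, or 539 bp of genome per base, and had 2 reads in PANC-1 replicate 3. CDKAL1, which encodes a tRNA-modifying enzyme, had a 182-base circle from exons 5 and 6 around an intron of 90141 bp, with 2 reads in each line. WDFY3, an autophagy adaptor, had 183 bases in 52958 bp and 4 reads, and EIF4G3, a translation initiation factor, had 190 bases in 60518 bp and 13 reads. TNS3, the focal adhesion protein tensin-3, stood apart from these by its reads, with a 189-base circle from 3 exons across 48045 bp and 61 reads. At the other end were RNF213 with 10411 predicted bases, MDN1, a ribosome assembly ATPase, with 7522 bases in 41 exons (24 to 64 of 102), HIVEP3 with 5927, TCF20 with 5835 and the centrosome gene CEP192 with 5620. These 5 circles had 2 to 7 reads each, and none was in circBase.

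Exon structure was taken for 609 of the 659 circles (92.4%), those whose span and spliced length both equalled a run of exons in a GENCODE transcript of the host. They held a median of 6 exons (2 to 41), against 5 in circles of 10000 to 40000 bp and 3 in circles up to 10000 bp. Exon 2 was the start exon of 279 long circles (45.8%), against 38.2% and 26.0% in the shorter classes. Only 1 long circle started at exon 1 and only 1 ended in the last exon. Both were as rare in the shorter classes, with 2 of 2305 and 5 of 2915 matched circles starting at exon 1, and 4 and 1 ending in the last exon. The coding start lay within 145 of the 605 circles with a coding host transcript (24.0%), against 17.0% and 10.6% in the shorter classes, and 440 (72.7%) were wholly coding, against 80.8% and 87.6%. The predicted length was a multiple of 3 in 244 of the 659 (37.0%), against 37.4% and 36.0% in the shorter classes.

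The introns within and around the long circles were long as well, which for those within is largely fixed by the choice of circles by span. The longest intron inside a long circle had a median of 24866 bp, or 46.3% of the span, and took over 50% of the span in 271 circles (44.5%). In circles of 10000 to 40000 bp it was 52.1% of the span, with 53.5% of circles over that mark, and in circles up to 10000 bp 65.1%, with 70.7%. In the ADK circle, from the gene of adenosine kinase, 1 intron of 79395 bp lay within a span of 83913 bp, and in the DYRK1A circle, from a protein kinase gene, 1 intron of 52299 bp lay within 52582 bp. The intron before the start exon had a median of 17600 bp and the one after the end exon a median of 15342 bp. These medians were 10658 and 8411 bp for circles of 10000 to 40000 bp, and 5262 and 4550 bp for circles up to 10000 bp. They are descriptions across circles that share genes, with no test.

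**Figure D2:**
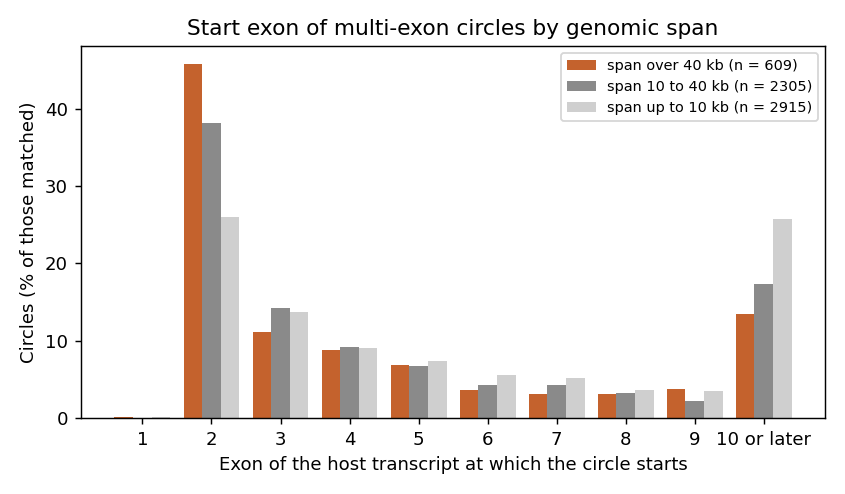
Share of matched multi-exon circles (%) by the exon of the host transcript at which the circle starts, for spans over 40 kb (n = 609), 10 to 40 kb (n = 2305) and up to 10 kb (n = 2915). Exon 2 is the tallest bar in long circles (45.8%), with lower shares in the 2 shorter classes (38.2% and 26.0%).

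Most of the 409 host genes gave 1 long circle (268 genes), while 115 gave 2 or 3, and 26 gave at least 4 and held 135 of the circles. Of the 659, 214 shared their start boundary with another long circle and 111 their end boundary, and 287 (43.6%) shared at least 1 of them. In 64 host genes long circles were the only exonic circles listed. In the other 345 hosts, a long circle was the most read exonic circle of the gene, or tied for it, in 88 (25.5%).

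Reads were concentrated in a few circles. A long circle had a median of 4 reads over the 6 libraries, the same as the shorter classes, and 371 had at most 4 reads. Of the 659, 89 (13.5%) were detected in every library and 195 (29.6%) in only 1, against 13.0% and 28.2% of the other multi-exon circles. The 10 most read held 1636 reads (26.5% of all reads of long circles), and the RNF13 gene alone held 17.0%.

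RNF13, which encodes a ubiquitin ligase of endosomal and lysosomal membranes, gave the most abundant long circle, hsa_circ_0001346. It lies at chr3:149563798-149639014 (hg19, plus strand), spans 75217 bp, and is predicted to hold exons 3 to 9 of the matched 11-exon transcript in 716 bases. Its reads were 119, 103 and 99 in PANC-1 versus 141, 103 and 121 in the resistant line. As reads per 10000 junction reads of the library, its level was 97.3 ± 9.00 (SD, n = 3) in PANC-1 and 109 ± 4.86 (n = 3) in PANC-1-GR. The ranges of the lines overlapped, and the log2 fold change of PANC-1-GR over PANC-1 was 0.14 (SE 0.15, adjusted p = 0.978 in the edgeR quasi-likelihood test).

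RNF13 gave 8 long circles, with 1050 of the 1251 reads of all its exonic circles (83.9%). Of these 8, 5 began at the same base, chr3:149563798, and held 1024 reads (97.5%), and they differed in where they ended. The end at 149629870 (hsa_circ_0003502, 66073 bp, 622 bases) had 207 reads, namely 41, 36 and 28 in PANC-1 versus 37, 27 and 38 in the resistant line. The end at 149619949 (hsa_circ_0004565, 56152 bp) had 46 reads, that at 149613347 (hsa_circ_0067717, 49550 bp) had 54, and that at 149613357 (hsa_circ_0003956, 49560 bp) had 31. The last pair of ends lie 10 bases apart, and the predicted lengths of 425 and 435 bases differ by the same 10 bases. The remaining 3 circles, from 2 later starts, had 26 reads in all, of which hsa_circ_0067724 had 13 (1, 6 and 4 in PANC-1 versus 2, 0 and 0 in the resistant line).

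The leading RNF13 circle took 63.3%, 60.9% and 66.0% of the reads of RNF13 long circles in PANC-1, versus 68.8%, 66.5% and 66.1% in the resistant line. The ranges did not overlap, but the highest PANC-1 and lowest PANC-1-GR values were close and the 95% Clopper-Pearson intervals of single libraries were wide (57.8 to 73.5 for PANC-1 replicate 3, for example). The means were 63.4 ± 2.53% and 67.1 ± 1.45% (SD, n = 3), and a two-sided exact permutation test gave p = 0.1, the smallest value possible with 3 libraries a line. RNF13 long circles together had 143 to 159 reads per 10000 in PANC-1 and 150 to 168 in PANC-1-GR.

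**Figure D3:**
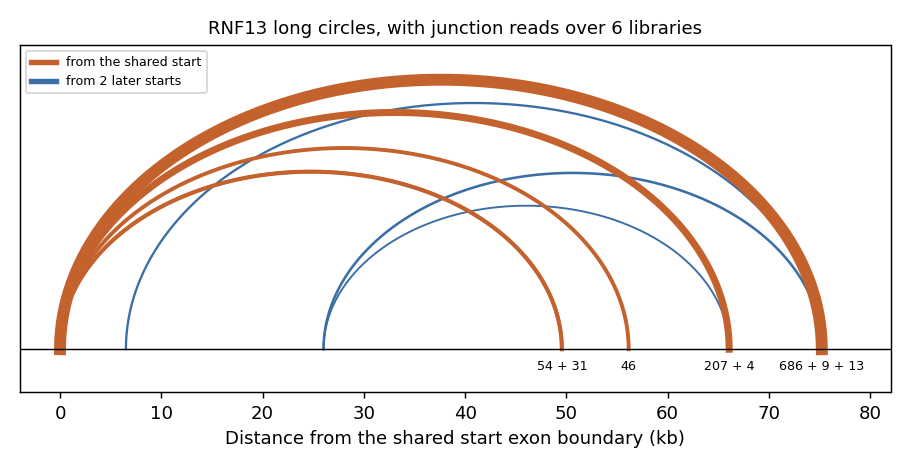
The 8 long circles of RNF13 as arcs that join start and end boundaries, by distance from the shared start (kb). Line width rises with the square root of the junction reads over 6 libraries, which are printed under each end in order of start (54 and 31 belong to ends 10 bases apart). The arc of 686 reads, across 75217 bp, is the widest, and 5 arcs leave from the shared start.

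After RNF13, the most read long circles included those of DNAH14 and HERC4, with 18 to 24 reads in each library. DNAH14, an axonemal dynein heavy chain gene, gave hsa_circ_0016601 (chr1:225140372-225195246, 54875 bp, exons 2 to 10, 1140 bases), with 20, 22 and 19 reads in PANC-1 versus 24, 24 and 22 in the resistant line. HERC4, a HECT-type ubiquitin ligase gene, gave a circle of 47504 bp at chr10:69726440-69773943 with 22, 20 and 24 reads in PANC-1 versus 21, 18 and 20 in the resistant line. In both of these the levels per 10000 reads of the lines overlapped, at 18.5 ± 1.72 and 21.3 ± 4.34 for DNAH14 and 20.3 ± 4.54 and 17.7 ± 2.16 for HERC4 (SD, n = 3 per line).

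A further 5 of the 10 most read circles had 4 to 24 reads in each library. TRIO had 11, 14 and 12 reads in PANC-1 versus 20, 13 and 8 in the resistant line for hsa_circ_0005683 (46012 bp, exons 5 to 11). ZMYND11, a reader of histone methylation, had 12, 18 and 9 against 24, 7 and 8 for hsa_circ_0008225 (41363 bp, exons 2 to 4). MPP6, a membrane-associated guanylate kinase gene, had 4, 10 and 18 against 16, 10 and 16 for hsa_circ_0001686 (44995 bp). PANC-1 replicate 1 was the low library for MPP6, and PANC-1-GR replicate 1 the high one for ZMYND11. CRIM1, a transmembrane regulator of BMP signals, had 11, 12 and 10 against 12, 11 and 15 for hsa_circ_0002346 (46122 bp, exons 2 to 4), and PTK2, the focal adhesion kinase gene, had 9, 9 and 13 against 14, 10 and 8 for hsa_circ_0005982 (72493 bp, exons 3 to 10). The lines overlapped for all 5.

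**Figure D4:**
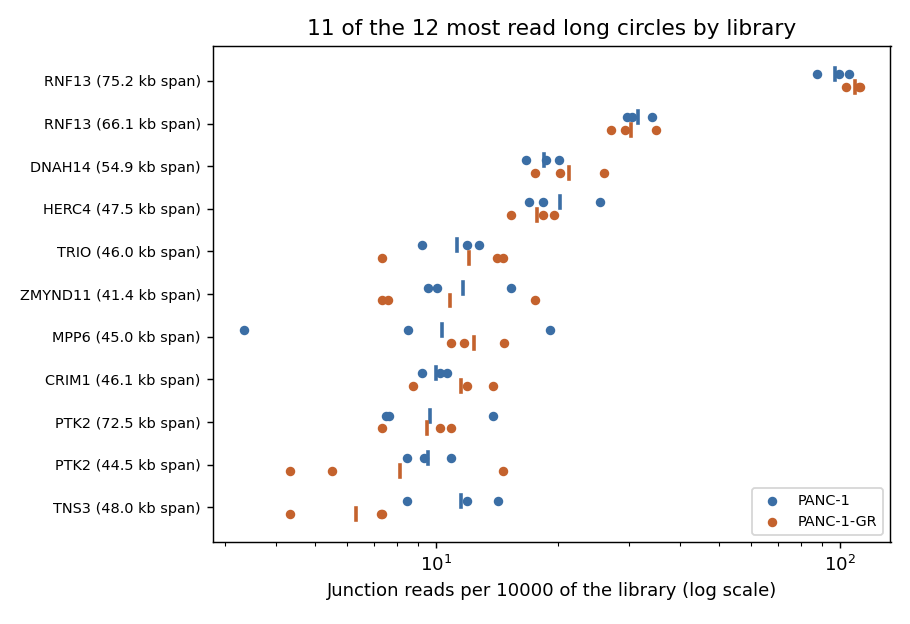
Junction reads per 10000 of the library (log scale) for 11 of the 12 most read long circles, 1 point per library (PANC-1 blue, PANC-1-GR orange), with a bar at the mean of 3 libraries. The 2 RNF13 circles at the top lie to the right of all others in every library, while MPP6 and ZMYND11 spread widely within a line and TNS3 has its PANC-1-GR points to the left of its PANC-1 points.

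PTK2 gave the largest number of long circles of any host, 17, between 41053 and 90311 bp. They held 264 of the 663 reads of PTK2 exonic circles (39.8%), and used 9 start and 9 end boundaries. No single one led as in RNF13. The most read had 63 reads (23.9%) and the next, hsa_circ_0003221, had 62, and 11 of the 17 had at most 8. The 5 circles that start at exon 3, like the most read one, held 165 of the 264 reads (62.5%). Summed over the 17, there were 43, 42 and 36 reads in PANC-1 versus 57, 40 and 46 in the resistant line, or 36.6 ± 1.39 and 42.4 ± 0.881 per 10000 (SD, n = 3). These ranges did not overlap, with a ratio of reads of 1.16 (95% counting interval 0.904 to 1.49).

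Other hosts with several long circles also reused boundaries. In HERC4, 4 long circles held 165 reads, which was 68.5% of the reads of its exonic circles, and in DNAH14 4 held 156 reads (45.5%). TRIO had 118 reads in 6 long circles (25.7%), and here the end boundary was shared, with 4 circles closing at exon 11. MPP6 had 111 reads in 5 (54.7%), while UBAP2, whose 25 exonic circles include 4 long ones, had 37 reads in those (7.71%).

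The remaining hosts with at least 4 long circles had leading circles of few reads. That of ANKIB1 (hsa_circ_0002744, 57754 bp) had 32 reads, at 7, 9 and 2 in PANC-1 versus 5, 5 and 4 in the resistant line. ARID1B, a subunit gene of the BAF chromatin remodelling complex, had 24 (hsa_circ_0001658, 48071 bp), at 4, 8 and 2 versus 1, 9 and 0. PHKB had 21 (hsa_circ_0004791), at 5, 3 and 1 versus 5, 1 and 6. Libraries of 1 line differed widely in these circles, and the lines overlapped in all 3. The leading circles had 16 reads in FAF1 (hsa_circ_0012397), 15 in UBAP2 (hsa_circ_0086721) and in ASCC3, a helicase gene (hsa_circ_0077493, 82143 bp), and 12 in PHF14 (hsa_circ_0079440). Those of TASP1 (41154 bp), DOCK1 (hsa_circ_0020394, 91075 bp), STAG1, a cohesin subunit gene (59493 bp), LRBA (hsa_circ_0071186), FOXJ3 (hsa_circ_0004416) and FER, a tyrosine kinase gene (hsa_circ_0006425), had 5 to 10 reads. In RNGTT, the gene of the mRNA capping enzyme, 4 of the 5 long circles tied at 6 reads.

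GLCCI1, a glucocorticoid-induced gene, had long circles only. Its 4 circles had 11, 12 and 12 reads in PANC-1 versus 8, 2 and 4 in the resistant line, or 10.7 ± 1.82 and 3.90 ± 1.85 per 10000 (SD, n = 3). All PANC-1 libraries lay above all PANC-1-GR libraries, with a ratio of 0.393 (95% counting interval 0.195 to 0.748). The leading circle, of 67224 bp, went from 4, 10 and 5 reads to 6, 2 and 1, another of 48649 bp from 6, 0 and 3 to 0 in each, and the one of 81110 bp from 1, 1 and 3 to 0 in each. Only hsa_circ_0001678 (56341 bp) had more reads in PANC-1-GR (0, 1 and 1 against 2, 0 and 3). Among the 26 hosts with at least 4 long circles, the summed levels of the lines did not overlap in 3 (11.5%), namely PTK2, GLCCI1 and TASP1 (14 reads against 6). Over the 1055 host genes with at least 12 reads in multi-exon circles of any span, the share was 9.95%, so the count of 3 is near that background.

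Over all long circles, the difference between the lines lay within the spread of their libraries. Long circles summed to 912 ± 60.4 reads per 10000 in PANC-1 versus 935 ± 19.7 in the resistant line (SD, n = 3), a difference of 23.6, and the ranges overlapped. This difference reversed, to −9.68, without PANC-1 replicate 1. The number detected was 305, 331 and 306 in PANC-1 versus 362, 283 and 325 in the resistant line, which has both the deepest library (13689 junction reads, 362 circles) and the shallowest (9222 reads, 283 circles), and the difference in means of 9.33 turned to −10.0 without PANC-1-GR replicate 1. There were 127 long circles with reads in PANC-1 alone (19.3%) and 123 in PANC-1-GR alone (18.7%), against 19.5% and 18.5% of the other multi-exon circles.

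The mean number of reads per long circle was close to that of other multi-exon circles. The difference per library, long minus other, was −0.0311, 0.121 and 0.162 reads in the PANC-1 libraries, versus 0.171, 0.091 and 0.195 in the resistant ones, higher for long circles in 5 of 6 libraries, with a mean of 0.118 (p = 0.0625, two-sided exact permutation test by sign flips). Without the single most read RNF13 circle the difference was −0.0532, and it was −0.127 without RNF13 circles on both sides (exact permutation p = 0.0312, the smallest that 6 libraries allow). Both leave-outs were chosen after seeing the data. By span, the mean was 8.95 reads over the 6 libraries from 40000 to 50000 bp (262 circles), 8.01 from 50000 to 60000 (170), 10.3 from 60000 to 70000 (91, with RNF13 hsa_circ_0003502 of 207 reads among them), 18.8 from 70000 to 80000 (58, with the leading RNF13 circle of 686 reads among them), 6.10 from 80000 to 90000 (48) and 4.83 above 90000 (30). None of the 30 longest was detected in all 6 libraries.

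Between the lines, few long circles passed the test. Of the 659, 95 (from 73 host genes) had at least 3 reads in at least 3 libraries and could be tested, among 969 circRNAs tested in all. These 95 held 58.8% of the reads of long circles. A circle was called where the edgeR quasi-likelihood test gave a change of 2-fold or more with an unadjusted p-value of 0.05 or less. By this rule 2 long circles (2.11%) were called, against 4.23% of all tested circRNAs, and both were higher in PANC-1-GR, against 2.79% of all tested. None was called lower by edgeR, against 1.44% of all tested. DESeq2 and limma-voom called none in either direction, against 1.44% and 3.41% of all tested. With that p-value alone there were 3 (3.16%), against 5.06% of all tested, and with a change of 1.5-fold or more beside it the same 3, against 4.95%. Log2 fold changes were above 0 in 48 of the 95 (50.5%), against 46.4% of all tested. No circRNA passed an adjusted p under 0.05, with 0.930 the smallest among long circles. The median log2 fold change was 0.10 over the 95 and −0.04 over the 969, and 66 of the 95 (69.5%) were within 1.5-fold, against 64.6% of all tested.

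The circle with the smallest p came from DNAH14. It lies at chr1:225140372-225211567 (hg19, 71196 bp, exons 2 to 11, 1391 bases) and starts at the same base as the abundant DNAH14 circle, with 1 exon more at its end. Its reads were 1, 2 and 1 in PANC-1 versus 5, 3 and 8 in the resistant line, and all PANC-1-GR libraries lay above all PANC-1 libraries. It passed the filter of 3 reads in 3 libraries through the PANC-1-GR libraries alone. Its entry into the test thus depended on high PANC-1-GR reads, and neither this separation nor its p is independent of that. The circle rose by a log2 fold change of 1.87 (SE 0.79, unadjusted p = 0.0186, adjusted p = 0.930, edgeR quasi-likelihood test). The abundant circle from the same start had overlapping levels in the lines, as given above, and a difference between the pair was not tested. Without PANC-1-GR replicate 3 the call on the 71196 bp circle was lost (log2 fold change 1.43, unadjusted p = 0.157 in the edgeR test), as it was with DESeq2 (unadjusted p = 0.0625) and limma-voom (unadjusted p = 0.0871).

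The other called circle was hsa_circ_0058495 of RHBDD1, a rhomboid protease gene, at chr2:227729320-227779067 (49748 bp, exons 4 to 8, 946 bases). It had 3, 4 and 2 reads in PANC-1 versus 10, 2 and 10 in the resistant line, where replicate 2 lay within the PANC-1 range. It rose by a log2 fold change of 1.21 (SE 0.60, unadjusted p = 0.0436, adjusted p = 0.930, edgeR quasi-likelihood test). Without either PANC-1 replicate 1 or 3, or PANC-1-GR replicate 1 or 3, the call was lost, with log2 fold changes of 1.16, 1.06, 1.06 and 0.87. It was also lost with the replicate number as a block (1.14, unadjusted p = 0.0684 in edgeR), with the edgeR exact test (unadjusted p = 0.0649), with DESeq2 (unadjusted p = 0.116), with limma-voom (unadjusted p = 0.0927), and with a prior count of 2, where the change was 0.86.

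TNS3 hsa_circ_0080189, the 189-base circle described above (chr7:47520701-47568745), had 17, 14 and 8 reads in PANC-1 versus 10, 4 and 8 in the resistant line. Per 10000 reads this was 11.5 ± 2.88 and 6.33 ± 1.73 (SD, n = 3), and the lines did not overlap. Its log2 fold change of −0.86 (SE 0.43, unadjusted p = 0.0457, adjusted p = 0.930, edgeR quasi-likelihood test) fell short of the 2-fold limit. Without PANC-1 replicate 1 or 2, or PANC-1-GR replicate 2 or 3, its unadjusted p in the edgeR test was 0.173, 0.0838, 0.148 and 0.0501. Without PANC-1 replicate 3 it was called, with a log2 fold change of −1.04 (unadjusted p = 0.024). Levels of the lines were apart in 5 of the 95 tested long circles (5.26%), against 10.8% of all tested. Among the other 4 were DNAH14 of 71196 bp, DYRK1A hsa_circ_0005955 (5, 6 and 4 against 7, 6 and 9 reads) and ARHGAP26 hsa_circ_0074362 (5, 6 and 2 against 8, 6 and 6), each higher in PANC-1-GR. The DNAH14 circle had passed the filter through PANC-1-GR alone. For DYRK1A the gap was very small, between PANC-1 replicate 2 (6 of 11785 junction reads) and PANC-1-GR replicate 1 (7 of 13689).

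The next circles by p missed the limit on p. On the higher side were BARD1 hsa_circ_0002999, from the gene of the BRCA1 partner protein, with 0, 1 and 3 reads in PANC-1 versus 4, 3 and 4 in the resistant line (log2 fold change 1.33, SE 0.90), ACTR3B hsa_circ_0005181, of an Arp2/3 complex subunit, with 0, 3 and 1 against 6, 2 and 3 (1.33, SE 0.90), and ADK hsa_circ_0018894 with 0, 1 and 4 against 7, 3 and 2 (1.14, SE 0.82). On the lower side were the 67224 bp GLCCI1 circle (−1.10, SE 0.63), STK39 hsa_circ_0002029, of a kinase that acts on ion cotransporters, with 4, 7 and 2 against 3, 1 and 1 (−1.36, SE 0.80), ZNF81 hsa_circ_0006364 with 12, 8 and 5 against 4, 4 and 6 (−0.85, SE 0.52), and RPAP2 hsa_circ_0000091, of an RNA polymerase II phosphatase, with 7, 3 and 2 against 0, 0 and 5 (−1.23, SE 0.82). For all 7, edgeR's quasi-likelihood test gave an adjusted p of 0.978. With these few reads, leaving out 1 library brought a call in 6 of the 7. BARD1 (2.63), ADK (2.75) and STK39 (−1.62) were called without PANC-1 replicate 3, ACTR3B (2.52) without PANC-1 replicate 2, and GLCCI1 without PANC-1 replicate 1 (−1.38) or PANC-1-GR replicate 1 (−1.89). RPAP2 was called without PANC-1-GR replicate 3, when PANC-1-GR had 0 reads in both libraries left, and its change was −0.55 without PANC-1-GR replicate 1. Without PANC-1 replicate 1 the change was 0.55 for ADK and 0.74 for both BARD1 and ACTR3B. ZNF81, at −0.55 to −1.10, was called in none of these fits.

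**Figure D5:**
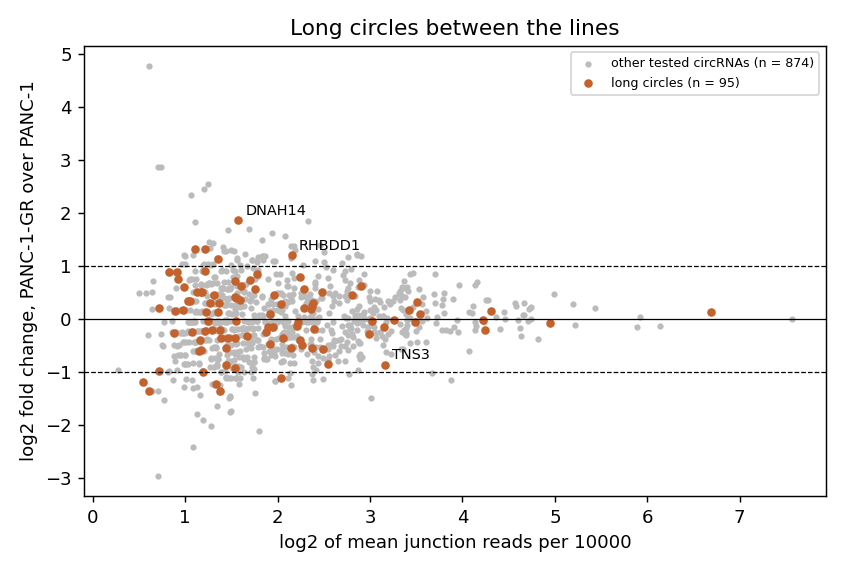
log2 fold change of PANC-1-GR over PANC-1 against the log2 of mean junction reads per 10000, for 95 long circles (orange) and 874 other tested circRNAs (grey), with dashed lines at a 2-fold change. DNAH14 (1.87) and RHBDD1 (1.21) lie above the upper line with an unadjusted p of at most 0.05, and TNS3 (−0.86) has such a p but lies inside the lines.

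By function of the host gene, 266 of the 659 circles fell in 9 lists. Membrane and vesicle traffic had the most, 54 circles from 30 genes, with ATP9B, a lipid flippase gene (hsa_circ_0004057, 31 reads), and VMP1, which acts in autophagy (hsa_circ_0005077, 20 reads), the most read. Of its 3 tested circles 0 were called by edgeR, against 4.23% of all tested circRNAs, and their median log2 fold change was −0.48, against −0.04 over all tested. With so few tested circles in each list here and below, 0 calls do not set a list apart from that share. Protein kinases and phosphatases had 51 circles from 25 genes, led by PTK2, with 0 of 11 tested called and a median of 0.10. Chromatin and transcription regulators had 46 circles from 24 genes, led by ZMYND11 and RERE (hsa_circ_0008501, 34 reads), with 0 of 8 called and a median of 0.12. The ubiquitin and SUMO system had 30 circles from 16 genes but 1306 reads, mostly of RNF13, with 0 of 8 called and a median of 0.05.

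Adhesion, matrix and actin genes had 22 circles from 13 genes, led by TNS3 and FNDC3B (hsa_circ_0003692, 27 reads), with 0 of 2 called and a median log2 fold change of −0.28. DNA replication, repair and cell cycle genes had 19 circles from 11 genes, led by REV3L, the catalytic subunit of DNA polymerase zeta (hsa_circ_0077660, 19 reads), and BARD1, with 0 of 2 called and a median of 1.02. Microtubule, motor and centrosome genes had 17 circles from 9 genes, with 1 of 4 called, the 71196 bp DNAH14 circle, and a median of 0.24. A share from 4 circles cannot be set against the 4.23% of all tested. In the 6 lists with tested circles and 0 called by edgeR, TNS3 alone reached an unadjusted p-value of 0.05 or less. DESeq2 and limma-voom called none in any of those 6, against 1.44% and 3.41% of all tested.

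Genes of circRNA biogenesis themselves gave 2 long circles. That of QKI (chr6:163876311-163956157, 79847 bp, exons 2 to 4, 404 bases) had 0 reads in each PANC-1 library against 2, 3 and 1 in PANC-1-GR. A count of 0 over the PANC-1 line allows up to 3 reads, and the circle did not pass the filter, so no fold change is given. That of XRN2, a nuclear exonuclease (hsa_circ_0059581, 42312 bp), had 2 reads in PANC-1 against 1 in PANC-1-GR.

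Circles just inside and just outside the limit of 40000 bp had few reads. The 3 just inside were ATRNL1 with 40027 bp and 4 reads, POLK with 40049 bp and 2 reads, and RNF13 hsa_circ_0067723 with 40055 bp and 4 reads, and the 3 just outside were BARD1 with 39999 bp and 5 reads, PTPN12 with 39969 bp and 3 reads, and RALGAPA1 with 39965 bp and 3 reads. Junctions of KIFAP3, DCUN1D4 and SNORD114-1 were also checked by qRT-PCR in the study. The table places all of them in the sense overlapping category, so they are not among the long multi-exon circles, although their spans are over 40000 bp.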

How the data were processed

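Total RNA of 6 libraries, 3 per line by the sample labels, was sequenced. The authors deposited raw counts of back-splice junction reads per circRNA and library, with hg19 coordinates, category, predicted spliced length and catalogue. CASAVA 1.8, BWA and hg19 are named in the submitters' processing notes. The sources used here do not name the junction caller, and the extraction note in the labels names tissue and plasma. Deposited log2 values were not used.

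Counts were compared with the edgeR 4.0.16 quasi-likelihood test in R 4.3.3 (two-sided, TMM factors 0.978 to 1.06, library size as all listed junction reads, prior count 0.125) over 969 circRNAs (3 or more reads in 3 or more libraries), and p-values were adjusted over all of them (Benjamini-Hochberg). The script was tested on simulated data. Levels are reads per 10000 junction reads. Intervals are 95% Clopper-Pearson. Depth was 9222 to 13689 junction reads per library, so most circles have too few reads for a test. Replicates of a line differed by more than counting noise (chi-square over degrees of freedom 1.16 to 1.23). Exons were matched to GENCODE 29 by span and spliced length, with no conversion of coordinates, and exon numbers belong to the matched transcript. Ratios of summed reads carry counting error only.

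Named were the 10 most read circles, the 6 longest spans, the 5 longest and 5 shortest spliced lengths, called circles and up to 5 per direction by p, leading circles of hosts with at least 4 long circles, up to 2 per gene list (1 gene list and the circles of 1 host gene are not reported here), and 3 on each side of 40000 bp, with circles whose lines did not overlap added after their values were seen. The members and lists were chosen with earlier results of these data known. Alternatives were RLE factors, library totals alone, the edgeR exact test, DESeq2 1.42.0, limma-voom (limma 3.58.1), other filters and thresholds, a replicate block, a prior count of 2, other span limits and each replicate left out.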

Additional observations from a re-analysis of the deposited data

How the results depend on the processing

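The number of long circles called between the lines was 2 with RLE factors and with library totals alone. It was 0 with DESeq2, with limma-voom, with at least 10 reads in 3 libraries and with an adjusted p under 0.05 (edgeR), 1 with the edgeR exact test and with a prior count of 2, 3 at a fold change of 1.5, and 8 of 659 with no filter (4 in each direction). Over all circRNAs the same settings called 3.92% with the exact test, 2.17% with that prior count and 4.95% at 1.5-fold, and 1.60% with no filter, against 1.21% of long circles. They called 4.23% with RLE factors and with library totals alone, 1.44% with DESeq2, 3.41% with limma-voom and 4.05% with the filter of 10 reads. No circRNA passed the adjusted p. At an unadjusted p of at most 0.05, DESeq2 gave 0 of 95, limma-voom 1 of 95 and the filter of 10 reads 1 of 12. Over all tested these were 14 of 969, 47 of 969 and 13 of 148. With the replicate block the number called was 1 (1.05%, against 2.89% of all tested). With so few reads per circle, correlations between libraries across the lines could not show whether same-numbered libraries were paired. A heatmap caption of the study calls the lines paired, and no label does. The block left the differences in summed level (23.6) and in number detected (9.33) as they were. Leaving out each replicate gave 1 (without PANC-1-GR replicate 3) to 6 calls (without PANC-1 replicate 3). These were 1.05% and 6.32% of long circles, against 4.54% and 5.37% of all tested. There were 4 calls (4.21%) without PANC-1 replicate 2 and without PANC-1-GR replicate 2, against 4.85% and 3.92% of all tested. The same leave-outs gave −9.68 to 49.3 for the difference in summed level, −10.0 to 29.5 for the number detected, and 0.103 to 0.148 for reads per long circle minus other. The last was 0.00936 for spans over 30000 bp (p = 0.812, exact permutation test, positive in 4 of 6 libraries), 0.368 for spans over 60000 bp and 0.425 for circBase circles alone (exact permutation p = 0.0312 for both), −0.0532 without the most read circle and −0.127 without RNF13, the last pair chosen after seeing the data. The cause was not tested. The settings over 60000 bp and of circBase circles alone both hold the leading RNF13 circle (75217 bp, 686 reads). Neither was repeated without RNF13. Over 11 single circles, 12 of 28 values of called circles lost the call (2-fold and unadjusted p of at most 0.05), and 8 of 128 values of circles not called gained it, with 0 changes of direction. Of the 564 long circles left out by the filter, 6 were called with no filter. The like count over all circRNAs that the filter left out is not given here, so these 6 have no background to be read against.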

Other observations

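Long circles were listed in circBase less often than other multi-exon circles by count, 373 of 659 (56.6%) against 67.5%, and 242 (36.7%) were in none of the catalogues that the table names, against 24.9%. These 242 had a median of 3 reads and a median predicted length of 996 bases, against 6 reads and 729 bases for the 373 in circBase, and 2 of them (0.826%) were detected in all 6 libraries, against 81 (21.7%). No test was made, since circles of 1 gene share exons.

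Chromosome 19 held 1 of the 659 long circles (0.152%), MLLT1 hsa_circ_0004594 with 40190 bp and 23 reads, but 161 of the other 5555 multi-exon circles (2.90%).

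With no filter on low counts, the edgeR quasi-likelihood test put 8 long circles past the same fold change and unadjusted p, 1.21% of the 659, against 1.60% of all 7746 circRNAs. Beside DNAH14 and RHBDD1 these were QKI and ABI2 (higher in PANC-1-GR) and SCAPER, GTF2F2, RNF13 hsa_circ_0067724 and the GLCCI1 circle of 48649 bp (lower), which had 6 to 13 reads each. The smallest adjusted p of any long circle in this edgeR fit was 0.696.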
